A study of Mus musculus with 4 samples.

Results

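The genes described here were 10 genes of the cytochrome P450 system and of epoxide hydrolysis, namely Cyp2b10, Cyp1a1, Cyp1b1, Cyp2e1, Cyp2j6, Cyp4b1, Cyp27a1, Ephx1, Ephx2 and Por. They were chosen by symbol, with the high value of Cyp2b10 on the array NTg 2 already known, and every probe set annotated to exactly 1 symbol among them was taken. This gave 15 probe sets of 9 genes, out of 45037 tested probe sets and 18193 genes with a probe set of 1 symbol. Por, the reductase that passes electrons to microsomal P450 enzymes, matched no such probe set, so its expression is not analysed here and only its promoter is counted. Because the choice used the difference between NTg 2 and the other arrays, that difference is given below as a description, without a test.

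The study measured total RNA from the hearts of 4 mice on 4 Affymetrix arrays, 1 per mouse, to ask how Sirt1, an NAD-dependent deacetylase, regulates cardiac genes. NTg 1 and NTg 2 came from wild type mice, and Tg-Sirt1 1 and Tg-Sirt1 2 from mice with a Sirt1 transgene. All mice were killed with pentobarbital and the hearts were frozen in liquid nitrogen, per the labels' protocols. The labels give no age, sex, strain, transgene promoter or founder line. NTg 1 and the array labelled Tg-Sirt1 1 hardly differed, with an SD of their differences of 0.0759 log2 units over all probe sets, against 0.342 to 0.405 in the other 5 pairs, and 0 probe sets lay over 2-fold apart. The median log2 value was 6.22 to 6.30 on the 4 arrays. Defining genes of cardiac muscle were bright on every array: the 10 cardiomyocyte markers averaged 13.60 to 13.72, and Myl2, the ventricular light chain, read 13.96 to 14.15. Sirt1 itself read 7.30, 7.17, 7.16 and 7.93 on NTg 1, NTg 2, Tg-Sirt1 1 and Tg-Sirt1 2, so that it was not higher on the array labelled Tg-Sirt1 1.

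P450 enzymes are heme proteins that insert oxygen into drugs, steroids and fatty acids. Those of the endoplasmic reticulum take electrons from NADPH through Por, and those of mitochondria through ferredoxin. In liver, the nuclear receptor CAR induces Cyp2b10 and the aryl hydrocarbon receptor induces the Cyp1 genes. In heart and vessels, P450 epoxygenases turn arachidonic acid into epoxides that act on vascular tone, and the soluble epoxide hydrolase Ephx2 removes them.

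The sequences before the start sites of Cyp2b10 and of its neighbour Cyp2b9 are shown because the former gene was high on NTg 2 while the latter was not. Each run is the 250 bases before the start site, from RefSeq on build GRCm38.p6, plus strand, at chr7:25897408-25897657 for Cyp2b10 and chr7:26173159-26173408 for Cyp2b9. Capitals mark the motifs AGGTCA (the core bound by many nuclear receptors), GCGTG (the core bound by the aryl hydrocarbon receptor) and ATAAAA, which resembles a common box of core promoters, searched on both strands.
Cyp2b10: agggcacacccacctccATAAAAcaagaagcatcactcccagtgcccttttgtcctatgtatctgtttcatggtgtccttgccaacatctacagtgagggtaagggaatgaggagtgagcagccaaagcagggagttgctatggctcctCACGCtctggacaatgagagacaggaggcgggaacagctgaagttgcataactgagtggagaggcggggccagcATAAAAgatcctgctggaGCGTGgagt
Cyp2b9: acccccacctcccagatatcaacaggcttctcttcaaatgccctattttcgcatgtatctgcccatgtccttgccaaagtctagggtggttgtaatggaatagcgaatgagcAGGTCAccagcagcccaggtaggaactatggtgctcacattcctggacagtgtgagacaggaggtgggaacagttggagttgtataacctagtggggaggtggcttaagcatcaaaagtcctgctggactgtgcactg
In a global alignment, the Cyp2b10 stretch was 71.0% identical to that of Cyp2b9 and 71.0% identical to that of Cyp2b13, while Cyp2b9 and Cyp2b13 were 99.2% identical. Cyp2b10 held 2 matches to GCGTG, 2 to ATAAAA and 0 to AGGTCA, and Cyp2b9 held 1 match to AGGTCA and 0 to the others. The RefSeq table held a promoter for 9 members, which are those measured on the arrays without Ephx2 and with Por. Of these, 4 held GCGTG (Cyp2b10, Cyp1a1, Cyp1b1 and Por), 3 held ATAAAA (Cyp2b10, Cyp2e1 and Ephx1) and 0 held AGGTCA, against 28.2%, 17.6% and 13.8% of 27025 promoters of this length. A match of letters is a description and not a bound site. Only these 250 bases were searched, so a count of 0 says nothing of sites further away.

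Cyp2b10, an enzyme that oxidises drugs and steroids, was high in 1 of the 4 hearts. Its brightest probe set read 5.81 in NTg 1, 8.40 in NTg 2, 5.93 in the heart labelled Tg-Sirt1 1 and 5.96 in Tg-Sirt1 2. A further probe set read 5.63, 8.46, 5.82 and 5.97 in the same order, and the third read 5.79, 7.93, 5.96 and 5.64. All 3 probe sets thus stood apart on NTg 2 alone, by 2.14 to 2.64 log2 units above the median of the other 3 arrays, or 4.41-fold to 6.23-fold. The first pair of probe sets have names ending in _s_at, which marks probes that can match several transcripts, and the third does not. On the other 3 arrays all 3 probe sets lay below the array median, and on NTg 2 all lay above it. By this difference the brightest probe set ranked 3 among the 18193 genes. Over all genes, 25 (0.137%) were at least 1 log2 unit above all 3 other arrays on NTg 2, and 122 (0.671%) were as far below. In heart tissue, fewer cells of a type and less RNA per cell cannot be told apart.

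**Figure D1:**
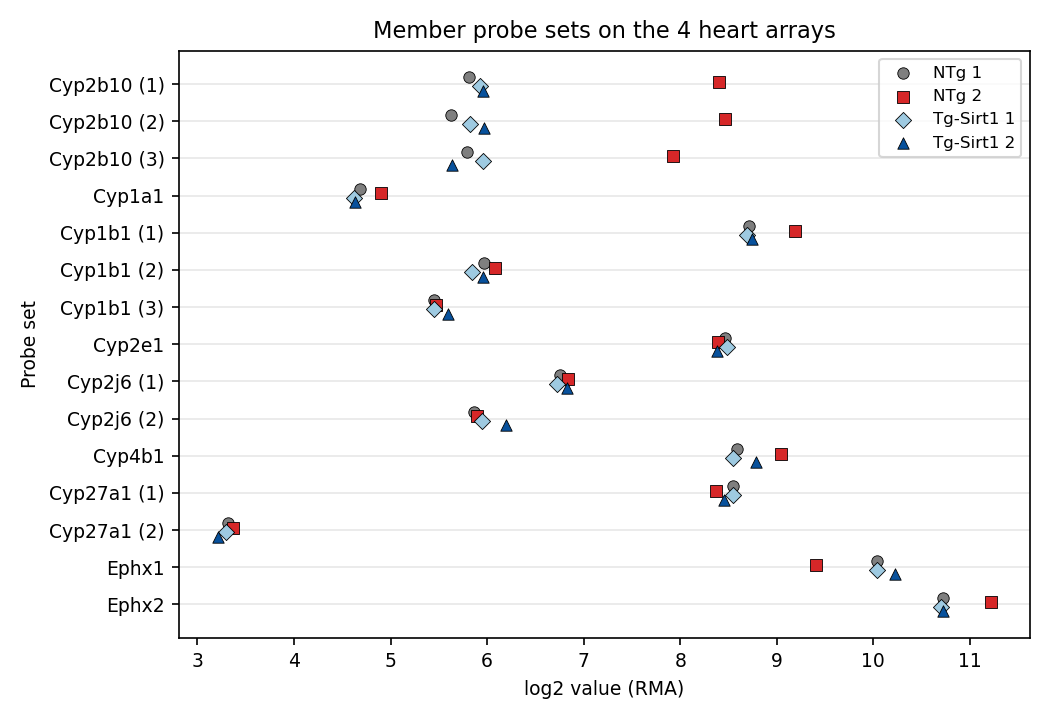
The log2 value (RMA, horizontal axis) of each of the 15 member probe sets on the 4 arrays, with 1 symbol per array and probe sets of a gene numbered by brightness. The 3 Cyp2b10 probe sets read 7.93 to 8.46 on NTg 2 and stay at 5.63 to 5.97 elsewhere, while all other members lie within 1 log2 unit across arrays.

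The rise was not shared by the other members. Their 12 probe sets differed on NTg 2 from the median of the other arrays by -0.63 to 0.50 log2 units, and 0 of them reached 1 log2 unit. At the level of genes, NTg 2 was above all 3 other arrays at 6 of the 9 members and below all 3 at 2, where the shares over all genes were 34.3% and 37.9%. Over probe sets it was above at 10 of 15 and below at 2, against 38.5% and 29.6% of all probe sets, and at least 1 log2 unit above at 3, against 0.111%. No inference is drawn from these counts, since the members were chosen on this contrast.

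Of the aryl hydrocarbon receptor targets, Cyp1a1, which oxidises polycyclic aromatic compounds, lay below the median of every array, at 4.68 in NTg 1, 4.90 in NTg 2, 4.62 in the heart labelled Tg-Sirt1 1 and 4.63 in Tg-Sirt1 2. Cyp1b1, an oestrogen and retinoid hydroxylase of stromal and vascular cells, lay above it and read 8.71, 9.19, 8.69 and 8.74. Both were highest on NTg 2, by 0.27 and 0.48 log2 units over the median of the others. The 2 dimmer Cyp1b1 probe sets, at 5.45 to 5.59 and 5.84 to 6.08, differed on NTg 2 by only 0.02 and 0.12, so the size for this gene depended on the probe set.

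Cyp2e1, the ethanol-inducible enzyme, was level across hearts, at 8.46 in NTg 1, 8.39 in NTg 2, 8.48 in the heart labelled Tg-Sirt1 1 and 8.38 in Tg-Sirt1 2. Its difference on NTg 2 of -0.07 log2 units turned to 0.13 after a second quantile normalization. Cyp2j6, of a subfamily that includes arachidonic acid epoxygenases, was level as well, at 6.76, 6.84, 6.72 and 6.83. Its dimmer probe set read 5.86, 5.90, 5.95 and 6.20, with the highest value on Tg-Sirt1 2. Cyp4b1, a fatty acid and xenobiotic hydroxylase abundant in mouse lung, read 8.59, 9.04, 8.55 and 8.78, so that Tg-Sirt1 2 lay between NTg 2 and the near-identical pair. Cyp27a1, the mitochondrial sterol hydroxylase of bile acid synthesis, read 8.55, 8.37, 8.55 and 8.45 and was lowest on NTg 2, with a difference of -0.18 that became 0.015 after a second quantile normalization. Its other probe set, at 3.21 to 3.37, lay far below the array medians.

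The epoxide hydrolases went opposite ways on NTg 2. Ephx1, the microsomal enzyme that hydrolyses epoxides of drugs, read 10.04 in NTg 1, 9.41 in NTg 2, 10.04 in the heart labelled Tg-Sirt1 1 and 10.22 in Tg-Sirt1 2. Ephx2, the soluble enzyme that hydrolyses fatty acid epoxides, read 10.72, 11.22, 10.70 and 10.72. NTg 2 was thus apart by -0.63 log2 units for Ephx1 and by 0.50 for Ephx2 from the median of the other arrays, and lay outside their range for both. The Ephx1 difference was -0.38 after a second quantile normalization and -0.81 against Tg-Sirt1 2 alone. That of Ephx2 was 0.71 and 0.50 in the same settings, so the sizes depended on the scaling. Of their relatives, Ephx3 was lowest on NTg 2 by a small margin, at 7.01 against 7.11 to 7.18, and Ephx4 read 3.70 there and 3.70 to 3.77 elsewhere.

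Of the 9 members, 7 lay above the median of all 4 arrays, against 62.6% of all genes (7 of 15 probe sets, against 45.8%): Cyp1b1, Cyp2e1, Cyp2j6, Cyp4b1, Cyp27a1, Ephx1 and Ephx2. Probe sets differ in how well they bind, so a place above or below the array median is not an order of expression between genes, and no detection calls were used here.

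Between the labels, no member passed the test. In limma over all 45037 probe sets, 0 passed an adjusted p of 0.05 (0.0%), and 28 (0.0622%) had an unadjusted p under 0.05, 0 of them among the 15 member probe sets. Over genes 0.0495% had such a p, and 0 members did. Both Tg-Sirt1 arrays lay above both NTg arrays at 0 of 9 member genes and below at 1, Cyp1a1, against 11.4% and 9.3% of all genes, and at 1 and 3 of the 15 probe sets, against 9.59% and 11.4%. Every member probe set had an adjusted limma p of 0.996. Cyp2b10 had a mean of 7.11 ± 1.83 (SD, n = 2) in NTg and 5.95 ± 0.02 (SD, n = 2) in Tg-Sirt1, which gives a log2 fold change of -1.16 ± 0.82 (SE), with 95% confidence limits of -3.26 and 0.94. Without NTg 2 the value was 0.14. Ephx1 had 9.73 ± 0.45 (SD, n = 2) in NTg and 10.13 ± 0.13 (SD, n = 2) in Tg-Sirt1, a log2 fold change of 0.41 (interval -0.21 to 1.02), and 0.09 without NTg 2. Ephx2 had -0.26 (interval -0.77 to 0.25), and Cyp1b1 had -0.24 (interval -0.74 to 0.27). Without NTg 2 these were -0.01 and 0.005. Cyp4b1 had -0.15, Cyp1a1 -0.17, Cyp27a1 0.04, Cyp2j6 -0.03 and Cyp2e1 0.005. Without NTg 2 all of these but Cyp1a1 turned, to 0.075 for Cyp4b1, -0.05 for Cyp27a1, 0.015 for Cyp2j6 and -0.03 for Cyp2e1, and Cyp1a1 was -0.055. Since 1 array of each label was near-identical to 1 of the other label, the test had next to no power, and a lack of calls is no evidence of equal expression. An exact permutation test of 2 against 2 arrays cannot go below 0.333.

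**Figure D2:**
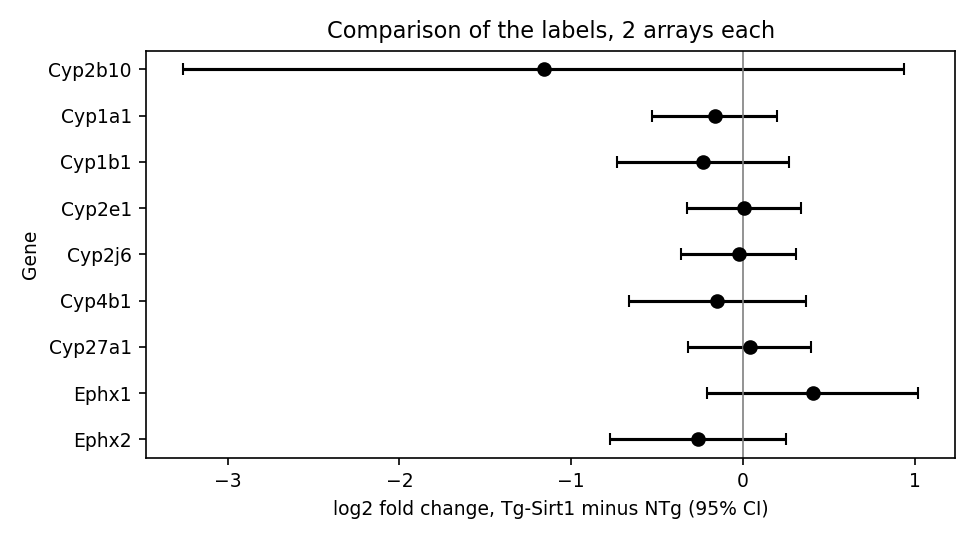
The log2 fold change of the Tg-Sirt1 arrays over the NTg arrays (horizontal axis) for the brightest probe set of each of the 9 member genes, as points with 95% confidence intervals from limma as bars, with 2 arrays per label. Every interval spans 0, and that of Cyp2b10 runs from -3.26 to 0.94.

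The genes whose 4 array values were most like those of Cyp2b10, by Euclidean distance after centring each gene on its mean, were Pdk4, Angptl4, Acot1, Meig1 and Mybpc2. Pdk4, the kinase that inactivates pyruvate dehydrogenase, was nearest at a distance of 0.22 log2 units and read 10.26 in NTg 1, 13.01 in NTg 2, 10.27 in the heart labelled Tg-Sirt1 1 and 10.55 in Tg-Sirt1 2. Angptl4, a secreted inhibitor of lipoprotein lipase, read 6.97, 9.22, 6.98 and 7.36 (distance 0.42). Acot1, a cytosolic acyl-CoA thioesterase, read 6.38, 8.48, 6.48 and 6.57 (distance 0.43). All were high on NTg 2 alone, as were the meiosis gene Meig1 (5.81 there, 3.68 to 3.96 elsewhere) and Mybpc2, the fast skeletal myosin-binding protein C (9.10 there, 7.06 to 7.22 elsewhere). With 4 arrays, likeness mostly says that 1 array stood apart.

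**Figure D3:**
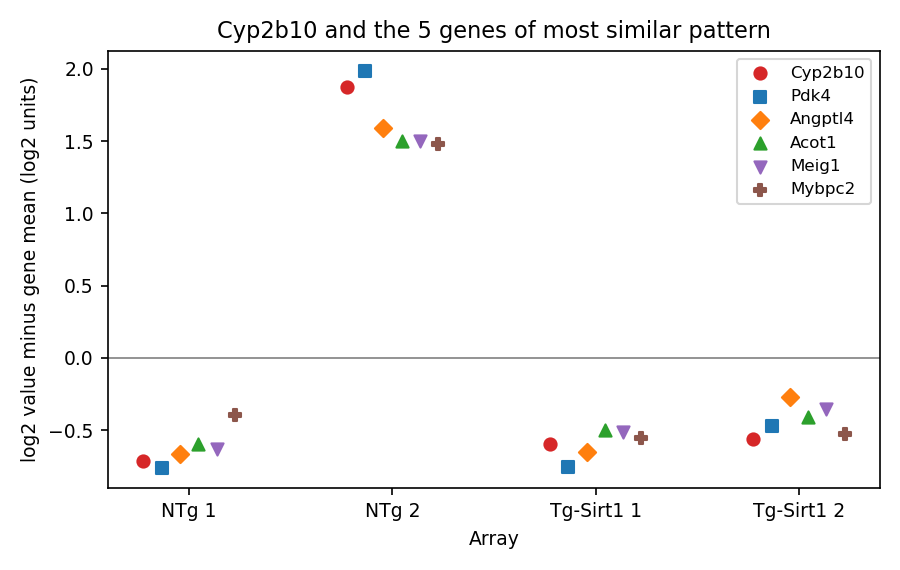
The log2 value minus the mean of the gene over the 4 arrays (vertical axis) for Cyp2b10 and the 5 genes of smallest distance to it, with 1 marker per gene at each array. All 6 genes are far above their means on NTg 2, as in the values of Cyp2b10 of 8.40 there and 5.81 to 5.96 elsewhere.

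The neighbours of Cyp2b10 on chromosome 7 did not share its rise. Their differences on NTg 2 ran from -0.89 log2 units at Axl, a receptor kinase gene, to 0.47 at Tmem91. The closely related Cyp2b13 and Cyp2b9, which lie next to it on 1 side, were level: Cyp2b13 read 5.81 on NTg 2 against 5.53 to 5.80, and Cyp2b9 read 4.99 against 4.98 to 5.19. Cyp2s1, the next gene on the other side, read 7.10 on NTg 2 and 6.77 to 6.85 elsewhere. Of the CAR and PXR targets other than Cyp2b10, 21 of 24 were measured, 0 passed the test and 0 differed on NTg 2 by 1 log2 unit. Over all genes 0.0% passed, 0.137% were at least 1 log2 unit above all 3 other arrays there and 0.671% as far below. The counts of 0 thus do not set these targets apart from other genes. NTg 2 was above all 3 other arrays at 9 of the 21 and below all 3 at 2, against 34.3% and 37.9% of all genes. The median difference was 0.11 log2 units. Of the 21, 13 lay below the median of every array. Over genes with a mean at or below 6.25 the shares were 54.0% above and 14.6% below. After a second quantile normalization 9 of the 21 were above and 5 below. The 2 below in the deposited values were Gstm1 and Alas1. Gstm1, a glutathione transferase, read 11.27 on NTg 2 and 11.60 to 11.77 elsewhere, and Alas1, the rate-limiting enzyme of heme synthesis, read 10.03 and 10.35 to 10.70. Aldh1a1, a retinal dehydrogenase, was level with a difference of 0.04 log2 units, and the transporter gene Abcb1a read 8.75 there and 8.47 to 8.52 elsewhere. The drug-metabolising Cyp3a11, a liver target of PXR, read 5.46 to 5.71 over the 4 arrays, with 5.56 on NTg 2.

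Among the receptors, Nr1i3, which encodes CAR, read 6.04 on NTg 2 and 5.63 to 5.80 elsewhere, and Nr1i2, which encodes PXR, read 5.39 and 5.15 to 5.26. NTg 2 was the highest for each, as it was at 54.0% of all genes with a mean at or below 6.25. Both lay below the median of every array. Their partners Rxra, Rxrb and Rxrg and the fatty acid receptor Ppara lay above it, and Ppara read 8.63 on NTg 2 and 8.96 to 9.18 elsewhere. The aryl hydrocarbon receptor gene Ahr read 8.01 on NTg 2, within the 7.86 to 8.22 of the others. Its repressor Ahrr was low on NTg 2, at 5.67 against 7.46 to 8.02, a difference of -1.80 log2 units. Of the 12 receptor genes measured of 14 listed, 6 had a higher and 6 a lower Tg-Sirt1 mean (median log2 fold change -0.01), and 0 passed. NTg 2 was above all 3 other arrays at 4 of the 12 and below all 3 at 5, against 34.3% and 37.9% of all genes.

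The other targets of the aryl hydrocarbon receptor did not move one way on NTg 2. Nqo1, the quinone reductase, read 9.14 there and 8.26 to 8.77 elsewhere, and Xdh, xanthine dehydrogenase, 9.83 and 9.21 to 9.44. Tiparp and Nfe2l2 were lower there, at 9.06 against 9.42 to 9.67 and at 10.03 against 10.42 to 10.52. Of the 8 measured of 10 listed, NTg 2 was above all 3 other arrays at 4 and below all 3 at 4. Over all genes the shares were 34.3% and 37.9%. Between the labels 0 of the 8 passed.

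The genes listed as electron transfer partners of P450 enzymes were lower on NTg 2 as a list. Besides electron carriers the list holds the heme-binding proteins Pgrmc1 and Pgrmc2, and Por is not in it. All 7 measured of the 8 listed (other than Fdxr, with no probe set of 1 symbol) lay below all 3 other arrays there, with a median difference of -0.41 log2 units, against 37.9% of all genes and a median of -0.01. Fdx1, the mitochondrial ferredoxin, read 11.25 on NTg 2 and 11.51 to 11.53 elsewhere. Cyb5r3, the cytochrome b5 reductase, read 10.55 and 10.91 to 10.98, and Pgrmc2, a heme-binding membrane protein, 9.50 and 10.17 to 10.25. Cyb5a, which encodes cytochrome b5, read 10.68 on NTg 2, 10.80 and 10.82 on the near-identical pair and 11.26 on Tg-Sirt1 2. Bright genes were lower there in general: NTg 2 was below all 3 other arrays at 50.1% of the genes with a mean above 6.25. After a second quantile normalization the list had 6 of 7 below and a median of -0.185. Between the labels all 7 had a higher Tg-Sirt1 mean (median log2 fold change 0.21, against 0.015 over all genes), but 3 did so without NTg 2, and 0 passed.

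Other Cyp genes with a letter after the number in the symbol, 63 in all, had no member as far from the rest on NTg 2 as Cyp2b10. Cyp51 has no such letter and is counted only with the sterol enzymes. The differences of the 63 on NTg 2 ran from -0.64 to 0.81 log2 units, with a median of 0.17, and 0 reached 1 log2 unit. Over all genes 0.137% were at least 1 log2 unit above all 3 other arrays there and 0.671% as far below. Cyp2d22 read 8.57 on NTg 2 and 8.93 to 8.95 elsewhere, Cyp2c38 8.47 and 8.26 to 8.33, and Cyp4v3 7.71 and 7.82 to 8.41. Cyp2c54 read 8.08 on NTg 2 and 8.14 on Tg-Sirt1 2, against 7.57 and 7.58 on the pair. Cyp20a1 read 7.56 on NTg 2 and 7.58 to 8.09 elsewhere. Cyp26b1, which breaks down retinoic acid, had the largest rise of the 63 on NTg 2, at 8.06 against 7.17 to 7.31. NTg 2 was above all 3 other arrays at 36 of the 63 and below at 7. Dim genes were higher on this array in general, with 54.0% of the genes at or below a mean of 6.25 above all 3 others, and 44 of the 63 lay at or below that level. Of the 19 brighter ones, NTg 2 was above all 3 others at 10 (52.6%), against 24.1% of all genes above that mean, and at 11 (57.9%) against 35.4% after a second quantile normalization. After a second quantile normalization 25 of the 63 were above and 13 below, with a median of 0.07, and after centring on the median 27 and 13. Centring moved the shares over all genes from 34.3% above and 37.9% below to 25.0% and 47.0%. Between the labels 23 had a higher and 40 a lower Tg-Sirt1 mean (30 and 33 after a second quantile normalization, 28 and 32 after centring on the median, 40 and 22 without NTg 2), and 0 passed.

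**Figure D4:**
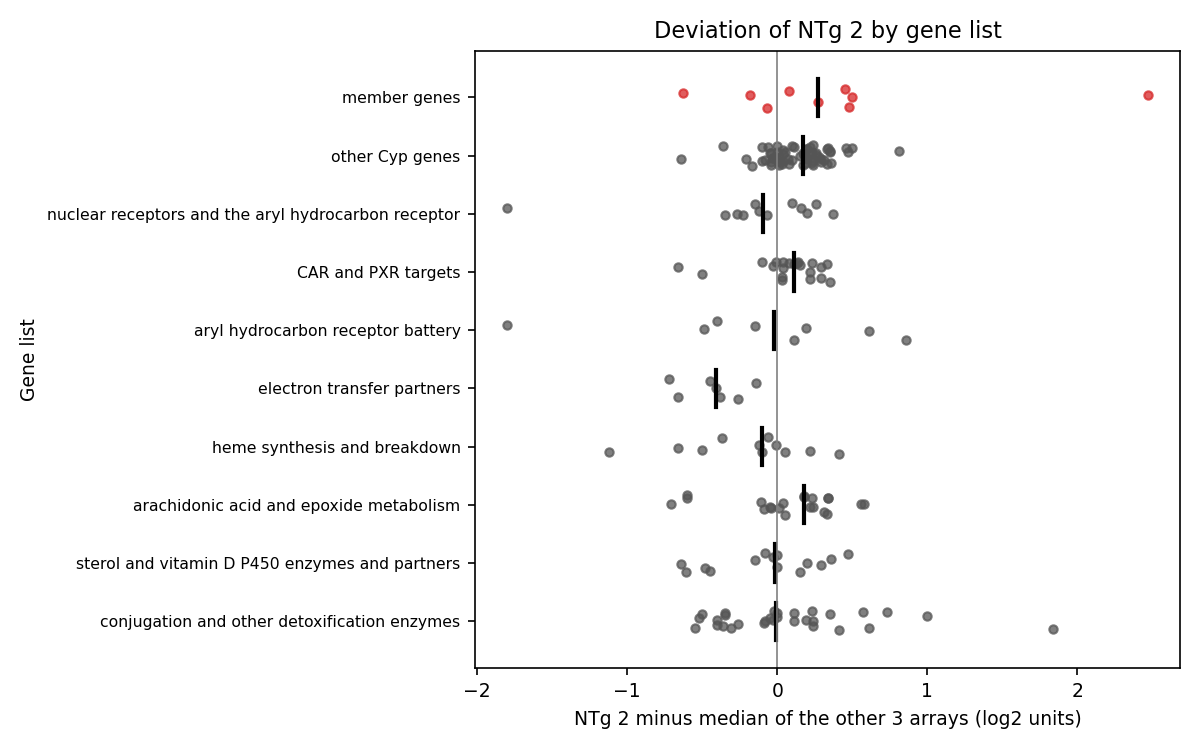
The log2 value on NTg 2 minus the median of the other 3 arrays (horizontal axis) for each gene of the members, of the other Cyp genes and of 8 lists of related genes (rows), with black bars at the medians and points spread vertically for legibility. Cyp2b10, at 2.47, lies furthest right of all genes shown, and the electron transfer partners all lie to the left of 0.

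Enzymes of arachidonic acid and epoxide metabolism showed no difference of 1 log2 unit on NTg 2 in 21 genes measured of 23 listed. Such distances were rare over all genes too, with 0.137% that far above all 3 other arrays and 0.671% that far below. NTg 2 was above all 3 at 11 of the 21 and below at 5, against 34.3% and 37.9% of all genes. After a second quantile normalization these were 10 and 6. Of the 21, 11 lay below the median of every array. Ptgds, the prostaglandin D synthase, read 12.93 on NTg 2 and 12.89 on Tg-Sirt1 2, against 12.35 on both arrays of the pair. Ptgis, the prostacyclin synthase, read 9.05 on NTg 2 and 9.34 to 9.69 elsewhere, and Lta4h, the leukotriene A4 hydrolase, 8.22 and 8.87 to 9.49. Alox5 was level at 8.27 to 8.39. Cyp4a14, a fatty acid hydroxylase that PPARA induces in liver, read 5.36 on NTg 2 and 5.05 to 5.26 elsewhere, below the array medians.

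Conjugating and other detoxifying enzymes had 1 of 30 measured genes at least 1 log2 unit above all other arrays on NTg 2. Over all genes the share was 0.137%. NTg 2 was above all 3 other arrays at 13 of the 30 and below at 11, against 34.3% and 37.9% of all genes. The 1 gene that rose by 1 log2 unit was Ces1d, named after its values were seen. This carboxylesterase gene read 7.95 in NTg 1, 9.79 in NTg 2, 7.92 in the heart labelled Tg-Sirt1 1 and 8.49 in Tg-Sirt1 2. The glutathione transferases of the list that were brightest had no rise of that size. Gstp1 read 11.89 on NTg 2 and 12.23 to 12.55 elsewhere, Gsto1 11.09 and 11.08 to 11.30, and the microsomal Mgst3 11.05 and 10.81 to 11.02. Between the labels 16 had a higher and 14 a lower Tg-Sirt1 mean (median 0.01), and 0 passed.

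Markers of organs that express these enzymes were set beside the Cyp2b10 values. The 9 liver markers measured of 10 averaged 6.15 to 6.20 on the other arrays and 6.28 on NTg 2, with albumin, Alb, at 6.47 to 6.67 on the 4 arrays. The 10 lung epithelium markers averaged 6.57 to 6.58 and 6.68, and NTg 2 was above all 3 other arrays at 8 of them, against 34.3% of all genes (5 after a second quantile normalization, 4 after centring on the median). The largest of these differences was 0.55 log2 units, at Sftpa1. Below the array medians lay the surfactant gene Sftpc at 5.55 to 5.63 and the club cell gene Scgb1a1 at 5.50 to 5.67. Within neither list did any gene rise by 1 log2 unit on NTg 2, a rise seen at 0.137% of all genes. The brightest lung marker, Hopx, is also a gene of the myocardium. The 8 adipocyte markers measured of 10 averaged 7.29 on NTg 2 and 7.20 to 7.60 elsewhere. NTg 2 was above all 3 other arrays at 2 of them and below at 1, against 34.3% and 37.9% of all genes. Those above were Pparg, at 8.02 against 7.54 to 7.80, and Retn, at 7.23 against 6.88 to 6.96. The 1 below was Adipoq, at 5.92 against 6.79 to 7.56, and the brightest, Fabp4, was level at 12.69 to 12.73. The neutrophil markers were high on NTg 2, as Cyp2b10 was. All 7 measured of 8 were highest there (6 of 7 after centring on the median), against 34.3% of all genes. Their average on NTg 2 was 7.12 against 6.35 to 6.48. S100a8 read 7.55 there against 5.64 to 6.10, and S100a9 read 8.15 against 6.39 to 6.77. The fibroblast markers were low on NTg 2, as Ephx1 was. On Tg-Sirt1 2 they averaged 10.65, against 11.12 on each array of the near-identical pair. Ephx1 read 10.22 on Tg-Sirt1 2 and 10.04 on each array of the pair. At 9 of the 10 fibroblast markers NTg 2 lay below all 3 other arrays, also after a second quantile normalization. The share was 37.9% of all genes and 50.1% of those with a mean above 6.25. Their average on NTg 2 was 10.20 against 10.65 to 11.12, and Dcn, the brightest, read 12.67 there and 12.98 to 13.31 elsewhere. The averages elsewhere and on NTg 2 were 9.64 to 9.99 and 9.61 for smooth muscle and pericyte markers, 9.18 to 9.47 and 9.15 for endothelial, 8.83 to 9.05 and 8.75 for macrophage, and 5.85 to 5.92 and 5.77 for mesothelium markers. The part of these cell types in the values of Cyp2b10 and Ephx1 was not tested.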

How the data were processed

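Heart RNA of 4 mice was measured on Affymetrix arrays, and the deposited table holds log2 values. The authors made these log2 values with RMA and Affymetrix Expression Console, per the submitters' processing notes. Versions and parameters are not stated there. RMA shares probe effects and a quantile normalization across arrays, so it can damp array-wide differences, and precision is limited by how few arrays there are. From 45101 probe sets, 64 controls were left out. GEO's platform annotation gave 34945 probe sets 1 symbol, 932 several and 9160 none, and 34741 were matched by Entrez identifier to RefSeq (GRCm38.p6) with 0 symbols changed. A gene is represented by its brightest probe set with 1 symbol, by mean over the 4 arrays.

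Tg-Sirt1 was set against NTg in limma 3.58.1 (R 4.3.3, lmFit and eBayes, Benjamini-Hochberg over all 45037 probe sets, adjusted p of 0.05, residual df 2, prior df 3.10), with 2 arrays per label. Beyond 1 mouse per array, pentobarbital, frozen hearts and total RNA, no handling of the samples is described here. The p-values thus measure only the spread between these arrays. On simulated data of 45037 probe sets with 4 separate arrays, the fit recovered 100.0% of the probe sets changed by 2 log2 units between the labels. All simulated probe sets had the same SD, which makes recovery easy, whereas those of the data differ in spread. That share is therefore a check of the code and no estimate of power in these data. In a second simulation 1 array of each label was a near copy of the other, and the change was put on Tg-Sirt1 2 alone. There 0.0% were recovered, with a median estimate of 0.998, an outcome that the setting fixed in advance.

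The members and the lists were chosen with earlier results of these data known. The genes named are the members, the up to 4 brightest of each pathway list and a few receptors and enzymes named with it, the up to 6 brightest other Cyp genes, the 5 genes nearest to Cyp2b10, Sirt1, and for markers the brightest and those highest on NTg 2 by 1 log2 unit. Alb, Sftpc, Sftpa1, Scgb1a1, Adipoq, Pparg, Retn, Cyp3a11, Cyp26b1, Ces1d, Blvrb and the chromosome 7 neighbours were named in addition, some after their values were seen. Alternatives were leaving out each array, dropping dim probe sets, a replicate block, centring on the median, a second quantile normalization, an offset of 16 on the linear scale, a trended robust prior, other thresholds, the near-identical pair counted once, other reference arrays and the mean over probe sets of a gene. The counts of lists under other scalings, without each array and by signal level were added after seeing the data.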

Additional observations from a re-analysis of the deposited data

How the results depend on the processing

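Between the labels, the count of 0 probe sets past the adjusted limma threshold stayed at 0 under each alternative run other than an unadjusted p of 0.05, which gave 28. No member passed under any alternative run. The direction of the fold change turned in 17 of the member values recomputed and held in 94. After a second quantile normalization Cyp2e1 had -0.059 and Cyp27a1 -0.024. After centring Cyp2j6 had 0.01. With the near-identical pair counted once as NTg, Cyp2e1 had -0.05, Cyp2j6 0.04 and Cyp27a1 -0.01, and with the mean over probe sets Cyp2j6 had 0.085 and Cyp27a1 -0.025. Leaving out 1 array at a time gave log2 fold changes from -2.46 to 0.14 for Cyp2b10, -0.475 to 0.005 for Cyp1b1, -0.045 to 0.055 for Cyp2e1, -0.08 to 0.03 for Cyp2j6, -0.375 to 0.075 for Cyp4b1 and -0.05 to 0.13 for Cyp27a1. Those of Cyp1a1, Ephx1 and Ephx2 kept their sign. Cyp2b10, Cyp1b1 and Cyp4b1 turned only without NTg 2. The 50 probe sets at least 1 log2 unit above the other arrays on NTg 2 became 522 with Tg-Sirt1 2 alone as reference and 99 with the mean of the near-identical pair, since a single reference is easier to exceed than all 3 arrays. The Cyp2b10 difference of 2.47 was 2.59 after a second quantile normalization and 2.20 with an offset of 16. That normalization moved Cyp1b1 from 0.48 to 0.71, Cyp4b1 from 0.45 to 0.68 and Ephx2 from 0.50 to 0.71. It moved Cyp1a1 from 0.27 to 0.17 and Ephx1 from -0.63 to -0.38. The numbers in the titles pair 2 arrays each, whose deviations correlated at 0.293. With only 2 pairs the arrays share a number and no more, and with the replicate block 0 probe sets passed in limma, the lowest adjusted p being 0.931. The number of arrays and the near-identical pair limit every comparison between the labels.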

Other observations

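Enzymes of heme synthesis and breakdown, which supply and recycle the P450 cofactor, had 7 genes with a higher and 4 with a lower Tg-Sirt1 mean among 11 measured of 12 (median log2 fold change 0.165, against 0.015 over all genes), and 0 passed in limma. That median was 0.06 after a second quantile normalization, 0.045 without NTg 2 and 0.035 without Tg-Sirt1 2. On NTg 2, 6 of the 11 lay below and 2 above all 3 other arrays, against 37.9% and 34.3% of all genes. After a second quantile normalization 4 lay below and 4 above, and the median difference turned from -0.1 to 0.125 log2 units. Fech, ferrochelatase, read 10.72 on NTg 2 and 11.21 to 11.47 elsewhere. Urod read 10.01 there and 10.02 to 10.44, and Hmox2, a heme oxygenase, 9.96 and 10.08 to 10.20. Blvrb, a biliverdin reductase named after its values were seen, was furthest from the others, at 7.44 against 8.56 to 8.70.

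Sterol and vitamin D P450 enzymes and their partners had 7 genes with a higher and 7 with a lower Tg-Sirt1 mean among 14 (median -0.035), and 0 passed in limma. The cholesterol exporter Abca1 read 9.39 on NTg 2 and 9.97 to 10.22 elsewhere, and Abcg1 8.72 and 8.84 to 8.97. Hsd3b7, of bile acid synthesis, read 8.33 on NTg 2 and 8.80 to 8.94. Cyp7a1, the rate-limiting enzyme of that pathway in liver, read 7.03 there and 6.65 to 6.72 elsewhere.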
